A study of Mus musculus with 8 samples.

Results

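The 7 caspase genes Casp1, Casp2, Casp4, Casp6, Casp8, Casp9 and Casp12 were followed across kidney RNA of 8 diabetic mice. They were taken by gene name from a table of 55401 genes. All 7 passed the filter on low values, which required an FPKM of at least 0.5 in at least 4 libraries and kept 15150 genes. FPKM is the number of fragments scaled by transcript length and by the mapped reads of the library. Other caspase genes of the table were not analysed here.

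Kidney tissue of 4 mice treated with rFGF4 (mice 1, 2, 3 and 5) was compared with that of 4 control mice (mice 2, 3, 4 and 5), with 1 library per mouse. rFGF4 is a modified recombinant human fibroblast growth factor 4 without mitogenic activity. In the study's db/db experiment, male mice were 12 weeks old at the first injection and received 1 mg/kg intraperitoneally every other day for 8 weeks, and the controls received vehicle (PBS). The labels call the control mice a db/db model, whereas the study's text describes the sequenced mice as diabetic after streptozotocin (STZ). The study describes the same dose and schedule for its STZ mice, but states no regimen for the sequenced mice separately, and their model remains unresolved here. Leptin receptor mutant db/db mice model type 2 diabetes, and STZ, which destroys insulin-producing cells, models type 1. There was no non-diabetic group, so that no value below describes an effect of diabetes.

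Caspases are proteases that cut after aspartate and are made as inactive precursors. The inflammatory caspases Casp1, Casp4 and Casp12 form a group of neighbouring genes. Casp1 is activated on inflammasomes and matures interleukin-1β and interleukin-18, and mouse Casp4, also called caspase-11, senses bacterial lipopolysaccharide inside the cell. Both cut gasdermin D and so start pyroptosis, a lytic cell death. Casp12 is related to them in sequence and was first described in connection with stress of the endoplasmic reticulum. The initiator caspases start apoptosis. Casp8 acts below death receptors, Casp9 on the apoptosome that forms after release of cytochrome c, and Casp2 on the PIDDosome. The effector caspase Casp6 cuts lamins and other proteins during apoptosis. In the kidney, inflammatory caspases are known mainly from immune cells and injured tubules. Caspases are controlled largely by cleavage, which RNA levels do not measure.

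The 3 inflammatory caspase genes lie side by side on the plus strand of chromosome 9 in GENCODE M21 (GRCm38). Casp1 spans chr9:5298517-5307265, Casp4 chr9:5308828-5336783 and Casp12 chr9:5345430-5373032, with 1562 and 8646 bases between neighbours and no annotated gene in between. The other 4 genes lie apart, Casp8 at chr1:58795374-58847503, Casp6 at chr3:129901425-129914103, Casp9 at chr4:141793612-141815976 and Casp2 at chr6:42264985-42282508, all on the plus strand. Only Casp9 shared exon bases with other genes, 94 bases each with Cela2a and Ctrc on the opposite strand. Cela2a reached at most 0.0205 FPKM, and Ctrc was listed at the lowest value of the table in every library.

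Because the 3 neighbours varied together between mice, as described below, the sequences before their starts are shown beside that of Casp9, which varied apart from them. Each is the stretch from 250 to 51 bases before the RefSeq start (GRCm38.p6, plus strand), none of which touches an annotated exon. Capitals mark CG pairs. The stretches are chr9:5298267-5298466 for Casp1, chr9:5308599-5308798 for Casp4 (the first of 2 RefSeq starts), chr9:5345226-5345425 for Casp12 and chr4:141793362-141793561 for Casp9.
Casp1: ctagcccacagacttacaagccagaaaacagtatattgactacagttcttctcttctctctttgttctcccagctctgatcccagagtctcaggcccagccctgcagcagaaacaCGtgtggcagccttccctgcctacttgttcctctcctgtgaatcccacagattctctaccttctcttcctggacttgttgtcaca
Casp4: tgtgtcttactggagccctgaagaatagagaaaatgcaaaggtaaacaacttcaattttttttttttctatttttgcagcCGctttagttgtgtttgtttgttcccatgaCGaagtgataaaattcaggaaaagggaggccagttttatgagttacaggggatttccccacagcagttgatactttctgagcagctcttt
Casp12: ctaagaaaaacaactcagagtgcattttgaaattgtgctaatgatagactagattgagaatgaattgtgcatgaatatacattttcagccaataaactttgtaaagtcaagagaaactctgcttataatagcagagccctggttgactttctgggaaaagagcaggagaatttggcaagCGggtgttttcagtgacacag
Casp9: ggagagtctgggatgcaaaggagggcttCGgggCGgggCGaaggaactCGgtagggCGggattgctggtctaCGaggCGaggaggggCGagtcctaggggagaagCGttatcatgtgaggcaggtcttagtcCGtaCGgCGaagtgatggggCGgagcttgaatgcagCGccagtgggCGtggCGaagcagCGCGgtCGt
The Casp1, Casp4 and Casp12 stretches held 1, 2 and 1 CG pairs. The stretch before Casp9 held 19, and those before Casp2, Casp6 and Casp8 held 11, 10 and 5. That of Casp8 (chr1:58802252-58802451) lies before a RefSeq start inside the gene as annotated in GENCODE M21, not before the start annotated there. Over 32851 RefSeq stretches of the same length the median was 4, with quartiles of 2 and 11. Casp6, which also followed the 3 neighbours from mouse to mouse, held 10, and a relation of CG pairs to variation was not tested. Short motifs were searched on both strands, the core of the PU.1 site (GAGGAAGT), an interferon response core (GAAANNGAA) and a STAT site (TTCNNNGAA), and held by 1.75%, 5.79% and 5.76% of all stretches. In the 7 caspase stretches there was 1 match, the STAT letters TTCTGGGAA from 102 to 94 bases before the start of Casp12. The match is a description of letters and not of binding.

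The summed FPKM ranged from 389407 to 529835 in rFGF4 libraries and from 481321 to 552604 in vehicle libraries, and mitochondrial genes took 19% to 36% and 24.4% to 38.4% of it. As only FPKM are given, library depth is unknown. Kidney markers were present throughout, with Lrp2 of proximal tubules between 25.8 and 82.6 FPKM and Umod of the loop of Henle between 654 and 1213. Libraries differed in immune cell markers within both groups. Summed over 7 macrophage markers, FPKM was 550 in rFGF4 mouse 1 and 572 in vehicle mouse 5, 234 in rFGF4 mouse 2, 138 in vehicle mouse 3, and between 31.0 and 74.0 in the other 4 mice. The plasma cell gene Igkc reached 22335 FPKM in vehicle mouse 5 and between 22.4 and 2640 in the other 7 libraries. Several results are therefore also given without rFGF4 mouse 1 and vehicle mouse 5, an alternative chosen after seeing the data.

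None of the 7 caspase genes separated rFGF4 from vehicle kidneys. By limma on log2(FPKM + 1), 0 of 7 had an adjusted p under 0.05, as did 0 of all 15150 genes (0%). At an unadjusted p under 0.05, 0 of 7 caspases passed, against 4.62% of all genes, and at the study's threshold, which adds a fold change of 1.5 or more, or 0.67 or less, to that p,, 0 of 7 passed, against 1.53%. The groups overlapped for all 7 genes, whereas 3.33% of all genes had groups that did not overlap. In 5 of 7 the log2 fold change was above 0, beside 67.1% of all genes, and the medians were 0.14 and 0.09. Both that count and the share of all genes above 0 depended on the fit. The count was 2 of 7 with the replicate block (46.7% of all genes) or without rFGF4 mouse 1 (52.2%), 3 of 7 with macrophage markers as a covariate (59.3%) and 4 of 7 with median ratio scaling (47.3%), but 7 of 7 with array weights (67.7%), without rFGF4 mouse 3 (71.2%) or without vehicle mouse 5 (72.3%). Without rFGF4 mouse 1 and vehicle mouse 5 together, 0 of 7 again passed each of the 3 thresholds. Of all 15150 genes in that limma fit, 0 had an adjusted p under 0.05, 5.68% had an unadjusted p under 0.05 and 273 passed the study's threshold.

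**Figure D1:**
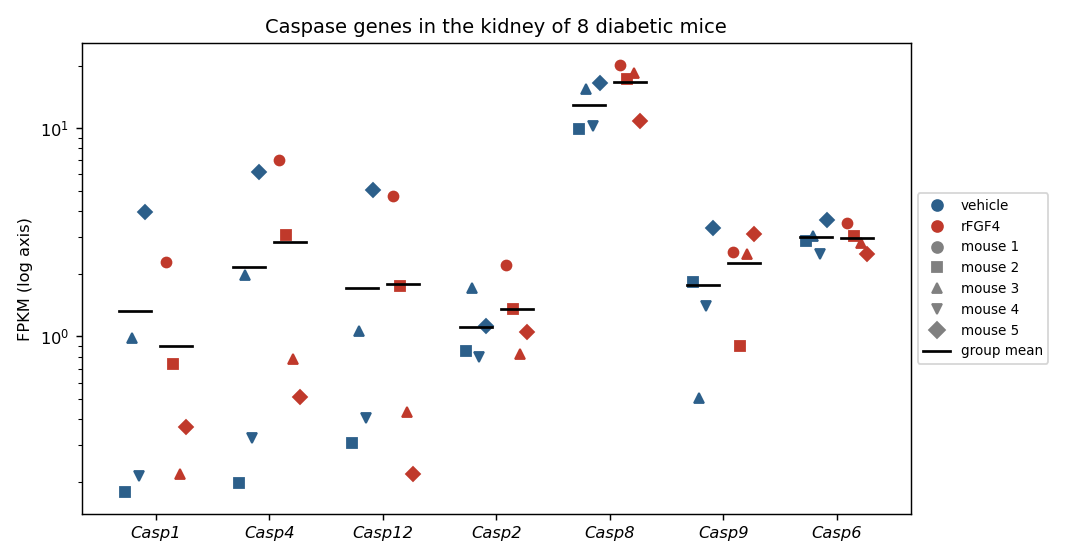
FPKM of the 7 caspase genes in each mouse on a logarithmic axis, with vehicle in blue, rFGF4 in red, 1 symbol shape per mouse number and a bar at the mean of 4 mice. Casp1, Casp4 and Casp12 ranged over more than 20-fold within the 8 mice, with rFGF4 mouse 1 and vehicle mouse 5 highest, whereas Casp6 stayed between 2.48 and 3.61.

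Among the inflammatory caspases, Casp4 (ENSMUSG00000033538) was at 7.04, 3.06, 0.783 and 0.511 FPKM in rFGF4 mice 1, 2, 3 and 5, and at 0.199, 1.96, 0.326 and 6.16 in vehicle mice 2, 3, 4 and 5. Each group held 1 mouse above 6, 1 mouse near 2 to 3 and 2 mice below 1. The mean was 2.85 ± 3.02 with rFGF4 and 2.16 ± 2.78 with vehicle (SD, n = 4 each), a log2 fold change of 0.35 (95% interval -1.27 to 1.96, adjusted p = 0.953 by limma). The exact permutation test over the 70 assignments of 4 mice gave p = 0.686, where the smallest p it allows is 0.0286.

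Casp12 (ENSMUSG00000025887) was at 4.73, 1.75, 0.434 and 0.219 FPKM in the rFGF4 mice and at 0.308, 1.06, 0.406 and 5.04 in the vehicle mice, in the same order. The mice with high Casp4 were again the high ones, and the groups overlapped over nearly their whole range. The log2 fold change was 0.07 (95% interval -1.35 to 1.48, adjusted p = 0.989 by limma; exact permutation p = 0.914).

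Casp1 (ENSMUSG00000025888) was at 2.29, 0.739, 0.218 and 0.367 FPKM with rFGF4 and at 0.178, 0.980, 0.214 and 3.96 with vehicle. Vehicle mouse 5 was the highest of all 8, and 4 of the 8 mice lay below 0.4. The log2 fold change was -0.14 (95% interval -1.29 to 1.01, adjusted p = 0.973 by limma; exact permutation p = 0.800). For each of these 3 genes the sign of the change depended on single mice. Without vehicle mouse 5 the log2 fold changes of Casp1, Casp4 and Casp12 were 0.31, 0.87 and 0.55, and without rFGF4 mouse 1 they were -0.44, -0.12 and -0.37.

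Casp8 (ENSMUSG00000026029), the initiator of death receptor signalling, was at 20.2, 17.2, 18.4 and 10.8 FPKM in the rFGF4 mice and at 9.86, 15.4, 10.2 and 16.5 in the vehicle mice. In 3 of the 4 rFGF4 mice it lay above every vehicle mouse, and rFGF4 mouse 5 lay among the low vehicle values. The means were 16.6 ± 4.07 and 13.0 ± 3.43 (SD, n = 4 each), a log2 fold change of 0.34 (95% interval -0.21 to 0.88, unadjusted p = 0.192, adjusted p = 0.920 by limma; exact permutation p = 0.171). Without rFGF4 mouse 5 the groups did not overlap and the log2 fold change was 0.52, with an unadjusted limma p of 0.0389 and an adjusted p of 0.521, in a fit where 9.44% of all genes had an unadjusted p under 0.05 and 11% had groups that did not overlap.

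Casp9 (ENSMUSG00000028914), the initiator on the apoptosome, was at 2.54, 0.904, 2.49 and 3.10 FPKM with rFGF4 and at 1.82, 0.505, 1.398 and 3.32 with vehicle. The lowest values belonged to rFGF4 mouse 2 and vehicle mouse 3, mice that were intermediate for the inflammatory caspases. The log2 fold change was 0.28 (95% interval -0.52 to 1.09, adjusted p = 0.932 by limma; exact permutation p = 0.514). It was 0.03 without vehicle mouse 3 and 0.53 without vehicle mouse 5.

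Casp2 (ENSMUSG00000029863), the PIDDosome caspase, was at 2.21, 1.36, 0.824 and 1.05 FPKM with rFGF4 and at 0.848, 1.71, 0.793 and 1.12 with vehicle. rFGF4 mouse 1 was highest, but vehicle mouse 5, high for the inflammatory caspases, was near the middle of the 8. The log2 fold change was 0.14 (95% interval -0.34 to 0.63, adjusted p = 0.941 by limma; exact permutation p = 0.600).

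The effector Casp6 (ENSMUSG00000027997) was at 3.53, 3.03, 2.80 and 2.50 FPKM with rFGF4 and at 2.87, 3.03, 2.48 and 3.61 with vehicle. The means of 2.963 ± 0.433 and 2.996 ± 0.469 (SD, n = 4 each) were nearly equal, with a log2 fold change of -0.01 and the narrowest interval of the 7 genes, from -0.33 to 0.31 (adjusted p = 0.994 by limma; exact permutation p = 0.886).

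**Figure D2:**
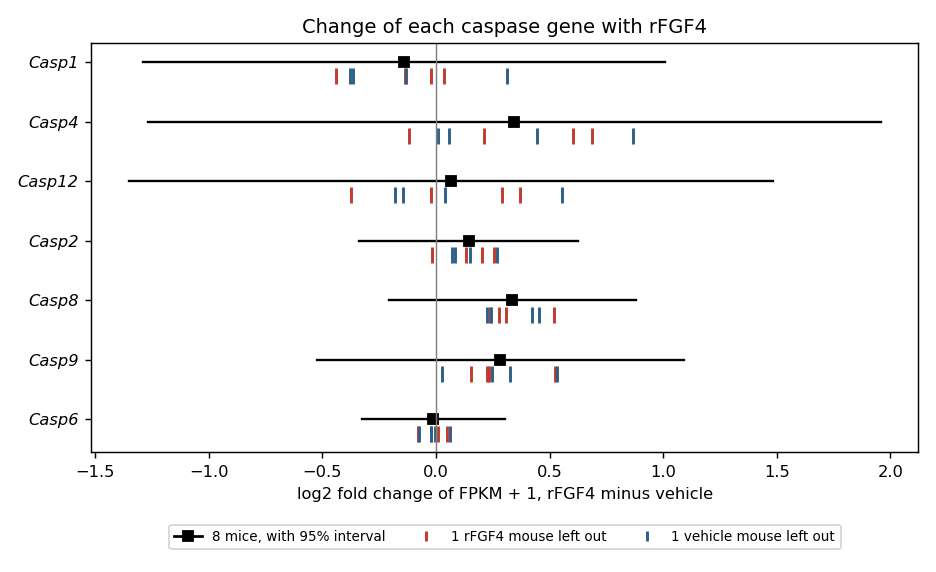
Log2 fold change of FPKM + 1, rFGF4 minus vehicle, for each caspase gene (square, with its 95% limma interval) and the values after leaving out 1 rFGF4 mouse (red marks) or 1 vehicle mouse (blue marks). Every interval includes 0, and the marks of Casp1, Casp4, Casp12, Casp2 and Casp6 fall on both sides of it.

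Casp8 was the most abundant of the 7 per length in every mouse, with a mean of 14.8 FPKM, and was followed by Casp6 (2.98), Casp4 (2.50), Casp9 (2.01), Casp12 (1.74), Casp2 (1.24) and Casp1 (1.12). Casp8 exceeded Casp6 by 2.28 ± 0.304 on the log2 scale (SD, higher in 8 of 8 mice). For the other 5 pairs of neighbours the difference was smaller than its SD over the 8 mice. By medians, and by the mean log2 difference, Casp9 (median 2.15 FPKM) stood above Casp4 (1.37), and Casp2 (1.08) above Casp12 (0.749), so that the order by means rested on the mice with high values. As the order was taken from these same values, it is a description. The order below Casp8 changed from mouse to mouse. Casp4 was second in rFGF4 mice 1 and 2 and in vehicle mouse 5, but sixth in vehicle mice 2 and 4.

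The caspases differed widely in how much they varied between mice. The highest library exceeded the lowest 35.4-fold for Casp4, 23.0-fold for Casp12 and 22.2-fold for Casp1. For Casp9 the ratio was 6.58, for Casp2 2.79, for Casp8 2.05 and for Casp6 1.46. Single mice set part of these ratios, which were 21.6 for Casp4 without vehicle mouse 2, 12.8 for Casp1 without vehicle mouse 5 and 3.68 for Casp9 without vehicle mouse 3. On the log2(FPKM + 1) scale the SD of Casp4 over the 8 libraries was 1.09, larger than that of 96.6% of the tested genes, and Casp12 and Casp1 exceeded 95.2% and 92.0%. The SD of Casp6 was 0.15, larger than that of 12.6%, and the median over all tested genes was 0.28.

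The 3 neighbouring genes rose and fell together from mouse to mouse. Over the 8 libraries, Pearson's r of log2(FPKM + 1) was 0.977 between Casp4 and Casp12 (exact permutation p = 0.000496, adjusted p = 0.00712 over 21 pairs of caspases), with a Spearman's rho of 0.905 (exact permutation p = 0.00456, adjusted p = 0.0479). Between Casp1 and Casp12 r was 0.954 (p = 0.00166, adjusted p = 0.00712) and rho 0.833 (p = 0.0154, adjusted p = 0.0538), and between Casp1 and Casp4 r was 0.925 (p = 0.00196, adjusted p = 0.00712) and rho 0.929 (p = 0.00223, adjusted p = 0.0469), all by the same exact permutation test. Without the 2 mice farthest from the median, rFGF4 mouse 1 and vehicle mouse 5, r was 0.956, 0.813 and 0.880. Relative to the mean of each mouse's own group, r was 0.985, 0.963 and 0.960.

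Casp6, on another chromosome, followed the inflammatory caspases within its narrow range, with r of 0.912 to Casp4, 0.933 to Casp12 and 0.897 to Casp1 (exact permutation p = 0.00184, 0.000744 and 0.00203, adjusted p = 0.00712 for each) and rho of 0.833, 0.881 and 0.810 (exact permutation p = 0.0154, 0.00724 and 0.0218, adjusted p = 0.0538, 0.0507 and 0.0652). Without the same 2 mice r fell to 0.711, 0.743 and 0.629, so that the relation rested in part on them. Casp2 had r of 0.588 to Casp1, 0.752 to Casp4 and 0.661 to Casp12 (exact permutation p = 0.117, 0.0319 and 0.0723, adjusted p = 0.175, 0.0837 and 0.138) and rho of 0.786, 0.786 and 0.619 (exact permutation p = 0.0279, 0.0279 and 0.115, adjusted p = 0.0652, 0.0652 and 0.186), none past the adjustment. Without rFGF4 mouse 1 and vehicle mouse 5 its r to Casp1 was 0.990, above those among the 3 neighbours on the same 6 mice, and its r to Casp4 and Casp12 was 0.826 and 0.748. No relation of Casp9 to another caspase passed the test, with r between -0.219 and 0.288 over its 6 pairs (exact permutation p between 0.494 and 0.932, adjusted p between 0.649 and 0.932). Without rFGF4 mouse 1 and vehicle mouse 5, however, its r turned from 0.288 to -0.761 with Casp1, from 0.130 to -0.672 with Casp4 and from 0.210 to -0.790 with Casp12, values over 6 mice that were not tested.

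The macrophage markers moved with these genes. Over the 8 libraries, Casp4 and the mean of 7 macrophage markers (Adgre1, Csf1r, C1qa, C1qb, C1qc, Cd68 and Cd14) had an r of 0.998 (exact permutation p = 2.48e-05, the smallest that 8 mice can give, adjusted p = 0.00174 over 70 relations of caspases with cell type lists) and ranked the mice identically (rho of 1, exact permutation p = 4.96e-05, adjusted p = 0.00347). For Casp12 r was 0.970 (exact permutation p = 0.000397, adjusted p = 0.00694) and rho 0.905 (p = 0.00456, adjusted p = 0.0456). For Casp1 r was 0.924 (exact permutation p = 0.00141, adjusted p = 0.0163) and rho 0.929 (p = 0.00223, adjusted p = 0.0260). Without rFGF4 mouse 1 and vehicle mouse 5, r was 0.997 for Casp4, 0.939 for Casp12 and 0.869 for Casp1.

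The macrophage markers covered the same range in both groups. Their summed FPKM was 46.2 to 550 with rFGF4 and 31.0 to 572 with vehicle. On average 7 of 7 were higher with rFGF4, beside 67.1% of all genes, none with an unadjusted limma p under 0.05. The list mean had an exact permutation p of 0.657. Adgre1, which encodes the macrophage protein F4/80, was at 8.39, 5.27, 1.41 and 0.821 FPKM in the rFGF4 mice and at 0.184, 3.05, 0.903 and 7.55 in the vehicle mice. In RNA of kidney tissue, more cells of a type and more RNA per cell cannot be told apart. The share of mitochondrial genes was 19.0% in rFGF4 mouse 1 and 24.4% in vehicle mouse 5. It was 29.8% to 38.4% in the 4 mice with the lowest macrophage markers. Of the mice in between, rFGF4 mouse 2 had 24.7%, and vehicle mouse 3 had 34.2%, within the range of those 4. The part of the mitochondrial share in the caspase values was not tested.

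With the macrophage mean as a covariate, an alternative chosen after seeing the data, the limma log2 fold changes were -0.01 for Casp4 (95% interval -0.23 to 0.20), -0.24 for Casp12 (-0.60 to 0.12) and -0.38 for Casp1 (-0.77 to 0.00302). For Casp1 the unadjusted p was 0.0514 and the adjusted p 0.579. None of the 7 genes passed a threshold in that fit, in which 1298 of 15150 genes had an unadjusted p under 0.05. As Casp4 followed the macrophage mean with an r of 0.998, its small change and narrow interval were largely set by the choice of covariate. The fit describes values at an equal macrophage level only.

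**Figure D3:**
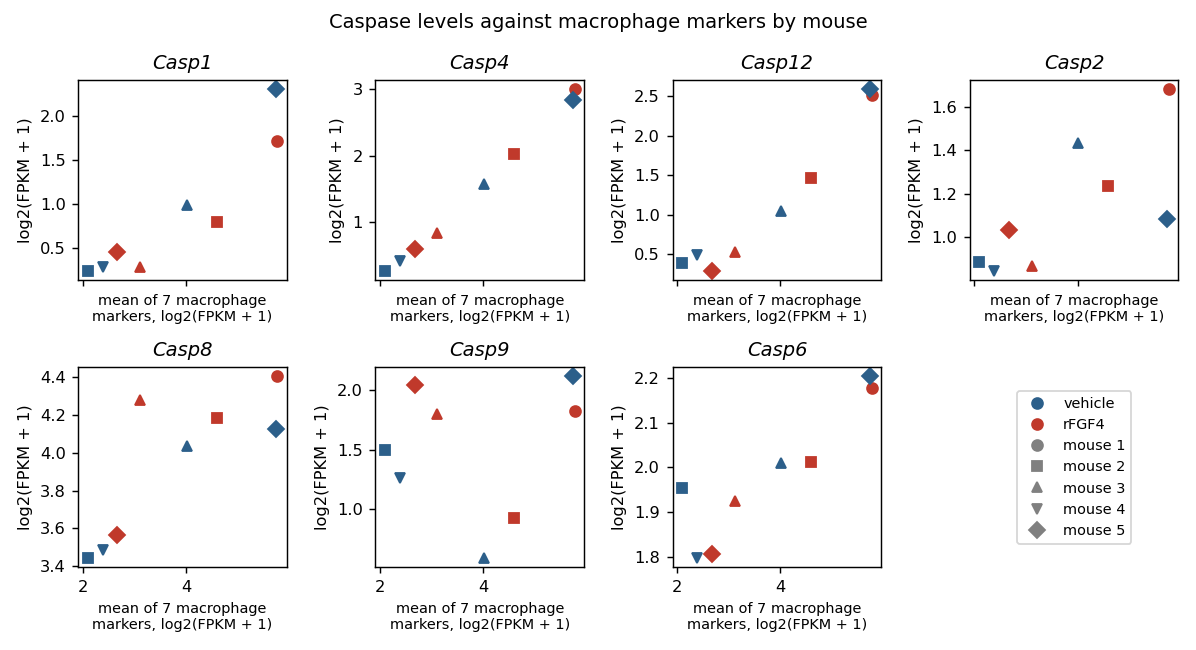
Level of each caspase gene against the mean of 7 macrophage markers, both as log2(FPKM + 1), with 1 point per mouse, vehicle in blue and rFGF4 in red. Casp4 lies nearly on a line with mice of both groups intermingled, whereas for Casp9 r is 0.129 over all 8 mice and -0.643 without rFGF4 mouse 1 and vehicle mouse 5.

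Casp6 was also higher in mice with more macrophage marker RNA, less tightly, and Casp8 less clearly. For Casp6 r was 0.905 (exact permutation p = 0.00305, adjusted p = 0.0194) and rho 0.833 (p = 0.0154, adjusted p = 0.0769), falling to an r of 0.693 without rFGF4 mouse 1 and vehicle mouse 5. For Casp8 r was 0.809 (exact permutation p = 0.0250, adjusted p = 0.0873) and rho 0.833 (p = 0.0154, adjusted p = 0.0769), which did not pass the adjustment. For Casp2 r was 0.733 (exact permutation p = 0.0399, adjusted p = 0.104) and rho 0.786 (p = 0.0279, adjusted p = 0.0931), with an r of 0.812 without those 2 mice. Casp9 had an r of 0.129 (exact permutation p = 0.755, adjusted p = 0.801) and a rho of 0.238 (exact permutation p = 0.582, adjusted p = 0.668), and its r was -0.643 without rFGF4 mouse 1 and vehicle mouse 5.

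Other immune lists were high in part of the same mice. T cell markers, of which 0 of 4 passed the filter, and the B and plasma cell list were related to Casp1 with r of 0.965 (exact permutation p = 0.00186, adjusted p = 0.0163) and 0.956 (p = 0.000223, adjusted p = 0.00637), and with rho of 0.976 (p = 0.000397, adjusted p = 0.0139) and 0.952 (p = 0.00114, adjusted p = 0.0160). The first r was 0.684 without rFGF4 mouse 1 and vehicle mouse 5, and the second was 0.899 without vehicle mice 4 and 5, the 2 farthest from the median of that list. Casp12, Casp4 and Casp6 were related to the T cell list as well, with r of 0.939, 0.882 and 0.858 (exact permutation p = 0.000273, 0.00164 and 0.00270, adjusted p = 0.00637, 0.0163 and 0.0189) and rho of 0.857, 0.952 and 0.833 (exact permutation p = 0.0107, 0.00114 and 0.0154, adjusted p = 0.0750, 0.0160 and 0.0769). Without rFGF4 mouse 1 and vehicle mouse 5 these r were 0.893, 0.904 and 0.487. With the B and plasma cell list, Casp12 and Casp4 had r of 0.843 and 0.834 (exact permutation p = 0.00523 and 0.00526, adjusted p = 0.0245 each) and rho of 0.690 and 0.833 (exact permutation p = 0.0694 and 0.0154, adjusted p = 0.162 and 0.0769), and r of 0.748 and 0.805 without vehicle mice 4 and 5. Summed T cell markers were 0.652 to 9.60 FPKM with rFGF4 and 0.181 to 22.6 with vehicle, and B and plasma cell markers 70.4 to 2715 and 23.9 to 22902, in each case with vehicle mouse 5 highest. In neutrophil markers, 21.6 to 228 with rFGF4 and 3.06 to 374 with vehicle, vehicle mouse 3 was highest, and no caspase had an adjusted exact permutation p under 0.05 with that list. What these cell types contribute to the caspase values was not tested.

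Casp2 fell where proximal tubule markers rose. Against the mean of 6 proximal tubule markers r was -0.933 (exact permutation p = 0.000818, adjusted p = 0.0115 over the 70 relations) and rho -0.952 (p = 0.00114, adjusted p = 0.0160), and r was -0.829 without rFGF4 mouse 1 and vehicle mouse 4. Casp4, Casp12 and Casp6 were also inversely related to that list, with r of -0.871, -0.840 and -0.807 (exact permutation p = 0.00213, 0.00494 and 0.00508, adjusted p = 0.0166, 0.0245 and 0.0245), whereas their rho of -0.762, -0.690 and -0.857 had adjusted exact permutation p of 0.107, 0.162 and 0.0750. The summed proximal tubule markers were 1148 in rFGF4 mouse 1, between 2699 and 6068 in the other rFGF4 mice and between 3406 and 7729 in the vehicle mice. Of the 6 markers, 5 were lower on average with rFGF4, none with an unadjusted limma p under 0.05, whereas 67.1% of all genes were higher.

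Of all tested genes, those whose pattern over the 8 libraries was most like Casp4 were Havcr2 (Pearson's r of 0.997), Mpeg1 (0.997) and Bcl2a1b (0.996), which has near-identical copies among which reads may be split. Mpeg1, a pore-forming protein of macrophages, ran from 1.36 to 46.0 FPKM. The genes most like Casp12 were Hpse (0.998), Clec12a (0.997) and Cmtm7 (0.997), and those most like Casp1 were Fnbp1 (0.996), Nkg7 (0.995), a granule protein of cytotoxic lymphocytes, and the immunoglobulin segment Igkv14-111 (0.994). For Casp8 they were Jun (0.991), Ptpn1 (0.987) and Vmp1 (0.984), with Jun, an immediate early transcription factor, between 6.89 and 36.9 FPKM. Casp6 was most like Igfbp6 (0.990), Zc4h2 (0.990) and Parp3 (0.983), and Casp2 most like Czib (0.984), Hip1r (0.982) and Tmem160 (0.977). For Casp9 the nearest were Klhl7 (0.955), Xndc1 (0.951) and Nme6 (0.945). As the 3 best of 15150 genes over n = 8 libraries, these values describe likeness and were not tested.

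The genes that act with the caspases did not separate the groups either. Of 42 partner genes in 6 lists, 34 passed the filter. None of the 34 had an adjusted p under 0.05 by limma, 0 had an unadjusted p under 0.05 against 4.62% of all genes, and 0 had groups that did not overlap against 3.33%. The log2 fold change was above 0 in 23 and below in 11, beside 67.1% of all genes above 0. It was above 0 in 12 and below in 22 without rFGF4 mouse 1, beside 52.2% of all genes above 0. Under median ratio scaling it was above 0 in 16 and below in 18, beside 47.3% of all genes above 0. The median of 0.09 in the fit of all mice was close to that of all tested genes.

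Of 10 inflammasome sensors and adaptors, Nlrp1b, Nlrc4, Aim2, Naip1 and Mefv did not pass the filter. Of the 5 tested, 1 was higher and 4 were lower on average with rFGF4, with a median log2 fold change of -0.10. The most abundant was Nlrp6, a sensor known mainly from the intestinal epithelium, at 6.81, 17.3, 21.2 and 34.4 FPKM with rFGF4 and at 35.9, 28.7, 36.9 and 23.0 with vehicle. It was lowest in rFGF4 mouse 1, where the inflammatory caspases were high. In vehicle mouse 5, where they were high too, it lay above rFGF4 mice 2 and 3. The log2 fold change of Nlrp6, -0.79, had the smallest unadjusted p of all partners, 0.0949 (adjusted p = 0.918 by limma). Nlrp3, the sensor of cell damage, was between 0.0944 and 1.43 FPKM, with a log2 fold change of -0.08. Pycard, the adaptor that joins sensors to Casp1, was at 7.78, 3.67, 2.19 and 2.06 FPKM with rFGF4 and at 2.37, 6.70, 2.12 and 7.49 with vehicle, highest in mice with high Casp1, with a log2 fold change of -0.20.

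All 4 genes of the list of gasdermins and interleukins were tested, with 2 higher, 2 lower and a median log2 fold change of 0.05. Of the 2 higher, Gsdme (0.12), named here after its value was seen, is a gasdermin known mainly as a substrate of other caspases. Gsdmd, the pore former of pyroptosis, was at 14.9, 7.35, 2.07 and 2.33 FPKM with rFGF4 and at 1.55, 5.67, 1.96 and 16.4 with vehicle, again highest in rFGF4 mouse 1 and vehicle mouse 5 (log2 fold change 0.16, SE 0.73). Il1b was the most abundant, at 6.85, 9.16, 1.31 and 4.86 FPKM with rFGF4 and at 0.251, 24.3, 11.0 and 20.0 with vehicle. It was highest in vehicle mouse 3 and thus did not follow Casp1 in every mouse, and its log2 fold change was -0.72 with an SE of 0.94. Il18, which renal epithelium also makes, was between 0.864 and 2.96 FPKM with a log2 fold change of -0.03.

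Of 10 death receptors, ligands and adaptors, 8 were tested (not Fasl or Tnfrsf10b), with 5 higher, 3 lower and a median of 0.09. Tnfrsf1a, a receptor of tumour necrosis factor and the most abundant, was at 56.9, 40.7, 27.7 and 17.1 FPKM with rFGF4 and at 18.2, 31.0, 16.3 and 32.9 with vehicle. Its 2 highest values were in rFGF4 mice, but its lowest rFGF4 value lay within the vehicle range (log2 fold change 0.45, SE 0.38, adjusted p = 0.920 by limma, exact permutation p = 0.371). Fadd, which recruits Casp8, was between 3.44 and 5.84 FPKM with a log2 fold change of 0.12. Cflar, which encodes c-FLIP, the regulator that pairs with Casp8, was at 5.62, 11.5, 10.0 and 8.48 FPKM with rFGF4 and at 7.83, 8.03, 7.34 and 2.38 with vehicle. Its lowest values were in rFGF4 mouse 1 and vehicle mouse 5, where the inflammatory caspases were highest, and its log2 fold change was 0.49 (SE 0.35, adjusted p = 0.920 by limma, exact permutation p = 0.286).

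Of the 4 genes of the apoptosome and the PIDDosome, 3 were tested, with 2 higher, 1 lower and a median of 0.05. Apaf1, the scaffold on which Casp9 is activated, reached 0.5 FPKM in only 2 of 8 libraries and was not tested. Cycs, cytochrome c and the most abundant, was at 49.8, 80.5, 90.5 and 83.2 FPKM with rFGF4 and at 102, 101, 95.1 and 69.1 with vehicle, a log2 fold change of -0.29 (SE 0.22). It was lowest in rFGF4 mouse 1 and vehicle mouse 5.

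All 6 caspase inhibitors and their antagonists were higher on average with rFGF4, with a median log2 fold change of 0.16, beside 67.1% of all genes above 0. Without rFGF4 mouse 1 only 2 of 6 were higher, with a median of -0.05, beside 52.2% of all genes. None passed a threshold with all 8 mice, where the smallest unadjusted p was 0.321 (adjusted p = 0.923 by limma). Xiap, which inhibits Casp9, was between 4.06 and 6.47 FPKM with rFGF4 and between 3.75 and 5.65 with vehicle, a log2 fold change of 0.17. Birc2, the most abundant of this list, was at 31.1, 13.7, 8.44 and 6.61 FPKM with rFGF4 and at 6.19, 9.25, 6.65 and 21.2 with vehicle, and was thus highest in the same 2 mice as the inflammatory caspases.

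Of 8 substrates of effector caspases, 7 were higher and 1 was lower on average, beside 67.1% of all genes above 0. Without rFGF4 mouse 1, 3 were higher and 5 lower, beside 52.2% of all genes above 0. With all 8 mice the list had a median of 0.11 and a smallest unadjusted p of 0.134 (adjusted p = 0.918 by limma). The most abundant, Sptan1 (αII-spectrin), was at 32.9, 32.3, 25.1 and 24.6 FPKM with rFGF4 and at 23.1, 23.3, 22.6 and 27.8 with vehicle. In all 4 rFGF4 mice it lay above 3 of the 4 vehicle mice, and vehicle mouse 5 overlapped with the rFGF4 range.

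**Figure D4:**
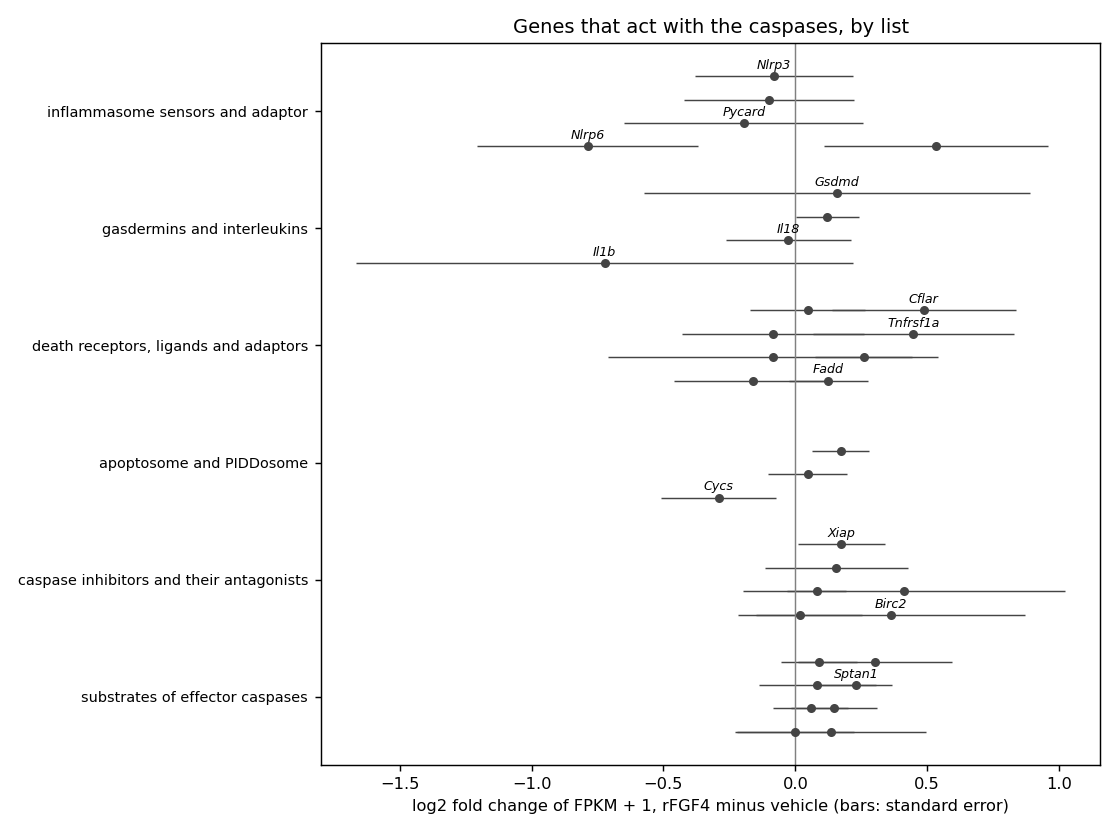
Log2 fold change of FPKM + 1, rFGF4 minus vehicle, for the 34 tested partner genes in 6 lists, with bars of 1 standard error from limma. Names are given for the tested genes described in the text, other than Gsdme. Changes lie between -0.79 for Nlrp6 and 0.53, and no gene passed a threshold.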

How the data were processed

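Kidney poly(A) RNA was sequenced in paired-end mode with 1 library per mouse. The authors assembled transcripts with StringTie, merged them with gffcompare and deposited FPKM per gene. The submitters' processing notes name Bowtie 0.12.2, HISAT2 2.0, StringTie 1.3.0 and the build mm8 without their roles, and strand is not given in the sources used here. Of the identifiers, 99.5% are in GENCODE M21 (GRCm38), which gave gene positions. The deposited fold changes, p-values and q-values of the authors' own comparison were not used. The table holds no counts, so the precision of single values is unknown.

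Groups followed the sample titles. The log2(FPKM + 1) of 15150 genes was compared in R 4.3.3 by limma (version 3.58.1) with a variance trend and Benjamini-Hochberg adjustment, after testing the scripts on simulated data. Two-sided exact permutation tests (Python 3.11, scipy) were used for single genes, levels and correlations. The 7 caspases, the lists and the rule for names were chosen with earlier results of these data known. Named were all caspases, partner genes with an unadjusted p under 0.05, groups that did not overlap or the highest mean of their list, 9 preset partners, and the 3 genes most like each caspase, leaving out Gm and Rik genes. Promoter stretches came from RefSeq (GRCm38.p6). No protein sequence was used here. The values of 1 marker gene are not reported here. Alternatives were other pseudocounts, filters, scalings, weights and variance models, a replicate block, left-out mice and a macrophage covariate.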

Additional observations from a re-analysis of the deposited data

Results flagged for a closer look

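In groups of 4 mice, a value was examined when its gap to the nearest other mouse exceeded Dixon's 95% limit as a share of the group's range, on the log2(FPKM + 1) scale for genes and on the FPKM scale for sums. Of 74 such groups of named genes, marker lists and the summed FPKM, 6 met it, where chance gives about 5%, and all 6 concerned vehicle mouse 5. None of the 7 caspase genes met it on that scale. On the FPKM scale Casp12 in vehicle mouse 5 did, with a gap of 0.840 of the range, against 0.702 on the log2 scale. In vehicle mouse 5, Cflar was low, with a gap of 0.919 of the range, and Apaf1 and Sptan1 were high, with gaps of 0.907 and 0.856. The summed B and plasma cell markers (0.938) and T cell markers (0.962) were high in the same mouse, and the summed FPKM of all genes was low (0.840).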

How the results depend on the processing

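By limma, 0 of 7 caspases and 0 of the tested partner genes had an adjusted p under 0.05, and 0 caspases passed the study's threshold, under all 20 alternatives. Caspases with an unadjusted p under 0.05 numbered 1 (Casp8) with array weights, where 12% of all genes passed, and 0 to 1 over the mice left out in turn (2.84% to 9.44%), partner genes 2 with array weights, 0 to 2 over the mice left out, 1 without rFGF4 mouse 1 and vehicle mouse 5 together (5.68% of all genes) and 4 with the macrophage covariate (8.57%). Caspases whose groups did not overlap numbered 0 to 1 without 1 mouse, the 1 being Casp8 without rFGF4 mouse 5, where 11% of all genes did not overlap. Log2 fold changes were above 0 in 2 caspases with the replicate block, in 3 with the macrophage covariate and in 2 to 7 without 1 mouse.

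The signs of 5 caspases were not stable. Values of opposite sign were, with array weights, 0.0744 for Casp1 and 0.0342 for Casp6, with both mice left out, 0.0106 for Casp1 and -0.00859 for Casp2, with the macrophage covariate, -0.0108 for Casp4 and -0.240 for Casp12, with median ratio scaling, -0.0131 for Casp12, and for Casp6 0.185 as TPM and 0.0777 as TPM without mitochondrial genes. TPM moved the median of all genes from 0.09 to 0.29, so that Casp6 lay below that median on either scale. The replicate block gave -0.41 for Casp4, -0.59 for Casp12 and -0.0885 for Casp2. The study describes no pairs, so the numbers were not taken as pairs. Same-numbered mice did not deviate together (r of -0.229, -0.155 and -0.393), but so few shared numbers cannot settle whether mice were paired. Leaving out 1 mouse gave -0.44 to 0.31 for Casp1, -0.12 to 0.87 for Casp4, -0.37 to 0.55 for Casp12, -0.0153 to 0.27 for Casp2 and -0.0768 to 0.0599 for Casp6. Casp8 and Casp9 stayed above 0 in all 20 alternatives, but without 1 mouse ranged from 0.23 to 0.52 and from 0.0251 (without vehicle mouse 3) to 0.53. Casp1 did not pass a filter of 1 FPKM. In an exact sign-flip permutation test of neighbouring levels, over 6 pairs picked by the same values, 1 pair passed with 8 mice (Casp8 and Casp6, adjusted p = 0.0469) and 0 with 7 mice, which cannot pass. The causes were not tested. Unknown depth limits the low values of Casp1, Casp4 and Casp12.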
